A study of Arabidopsis thaliana with 6 samples.

Results

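Protein phosphatases of type 2C (PP2C) are metal-dependent serine/threonine phosphatases that form one of the largest phosphatase families of plants. The transcripts studied here are those of 67 probe sets whose gene title in the authors' deposited table names protein phosphatase 2C or PP2C, out of 22746 probe sets on the array other than controls. The text of the titles matched 69 probe sets. ABI1 was set aside beforehand, and 1 further match, RPP2C, was left out because its title is that of an acidic ribosomal protein. Of the 67, 46 name 1 gene, 2 are shared by several genes, and 19 carry only a family title such as "protein phosphatase 2C, putative" and are called by their probe set number. Titles of 2 members call them pseudogenes.

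RNA came from seeds of Arabidopsis thaliana, ecotype Columbia-0, either wild type (3 arrays) or an agl67 mutant (3 arrays), which the labels call the mads-box mutant after the MADS-box family of AGL67. The labels call the arrays of a genotype biological replicates, and give neither the mutant allele nor the number of seed lots behind them. Both genotypes had been kept in water for 3 days at 4 °C in the dark and then for 3 hours at 22 °C in the light with 5 µM abscisic acid (ABA). There were no seeds without ABA, so the comparison is one of genotypes within the ABA treatment and not of the response to ABA. Levels are log2 array readings, differences are mutant minus wild type on the log2 scale, and probe sets cannot be ranked by transcript amount, because each binds with its own strength.

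Clade A of the family holds the ABA-pathway members. Without the hormone these phosphatases hold SnRK2 kinases inactive, and with it they are captured by the PYR/PYL receptors, which sets the kinases free to act on transcription factors; several clade A genes are themselves induced by ABA as a brake on the response. In seeds this core decides whether germination goes ahead. Other clades serve other circuits. Clade B dephosphorylates MAP kinases, and clade C holds POLTERGEIST and its relatives in stem cell maintenance. Clade D includes phosphatases that act on the proton pumps of the plasma membrane, and clade E includes repressors of growth under drought.

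The third wild-type array stood apart from the others. Its median log2 reading was 3.80 against 3.97 to 4.00 on the other 5, and it had the lowest of the 6 readings for 34 of the 67 PP2C probe sets and the highest for 8. Over all probe sets it was lowest for 44.3% and highest for 16.9%. AGL67, the check of the mutant, read 8.79, 8.25 and 8.78 on the wild-type arrays and 4.15, 4.30 and 3.66 on the mutant arrays. Of 10 listed seed markers, 7 were paired with a probe set. The log2 of their summed levels, which the highest readings dominate, was 15.39 to 15.57 in wild type and 15.22 to 15.41 in the mutant. SESA4 was lower, with a difference of -1.91 (limma adjusted p = 0.0130), and no other paired seed marker had an adjusted p under 0.05. CRA1, SESA1, SESA2 and SESA3 differed by -0.26, -0.48, -0.45 and -0.19, and EM1 and EM6 by 0.13 and 0.02. Of 4 leaf photosynthesis markers 3 were paired, and the log2 of their summed levels, set mostly by RBCS-1A, was 8.75 to 9.46 in wild type and 10.09 to 10.53 in the mutant. The leaf markers RCA and RBCS-1A were each higher in the mutant by 1.29 and 1.39 (limma adjusted p = 0.0118 and 0.0251), while the leaf marker LHCB2.2 read between 2.88 and 3.59 on the 6 arrays. With 1 array left out RCA missed the threshold in 3 of 6 fits (adjusted p up to 0.0841), RBCS-1A in 4 (up to 0.143) and SESA4 in 3 (up to 0.0570). None of 3 endosperm markers was paired. The part of these differences in the results below was not tested. In whole seeds, fewer cells of a type and less RNA per cell cannot be told apart.

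In limma, 0 of the 67 PP2C probe sets had an adjusted p under 0.05, against 2.7% of all probe sets. Of all probe sets, 438 (1.93%) passed as higher and 177 (0.778%) as lower in the mutant, and after a renewed quantile normalization these were 593 and 449. The authors' deposited table also holds 0 members with a false discovery rate under 0.05, against 2.25% of all. At an unadjusted p under 0.05 there were 10 members, 4 higher and 6 lower, which is 14.9% of the members against 16.4% of all probe sets. The largest negative difference was that of probe set 266274_at and the largest positive one that of AT4G28400, while P2C-HA, taken as the ABA co-receptor HAB1, had the smallest p-value.

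The median difference of the members was 0.03, beside 0.02 for all probe sets, and the differences ran from -1.25 to 0.70. Differences beyond 0.5 in either direction were found for 3 members, 4.48%, against 9.07% of all probe sets, while the median absolute difference was 0.18 for the members and 0.14 for all. Counted by sign, 39 members (58.2%) lay above 0 and 28 below, beside 54.9% of all probe sets above 0. The sign of the median rests on 1 array and on the scaling, for the members as for the whole array. Without the third wild-type array the members' median was -0.06 with 26 above 0 (38.8%), beside -0.01 and 46.6% for all probe sets. After median scaling it was -0.04 with 27 above 0 (40.3%), beside -0.04 and 41.6% for all. After quantile normalization it was -0.04 with 29 above 0 (43.3%), beside -0.003 and 49.3% for all. The 95% interval of the difference lay between -1 and 1 for 63 of the 67 members, so a change beyond 1 log2 unit lay outside the interval for most of the family. The other 4 were 266274_at, AT5G24940, AT4G28400 and AT3G16560.

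**Figure D1:**
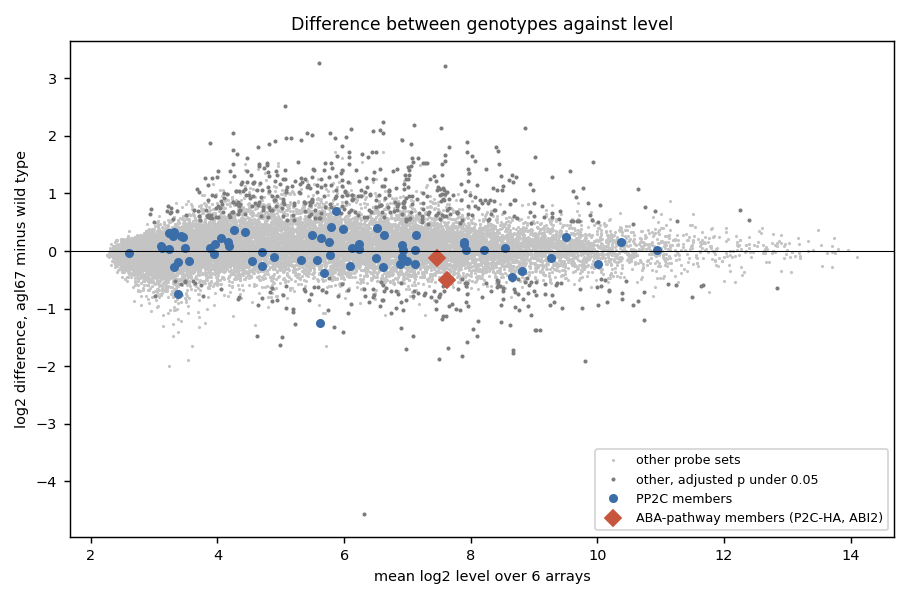
Difference between genotypes (vertical axis, log2, mutant minus wild type) against the mean log2 level over 6 arrays (horizontal axis) for each probe set, with PP2C members in blue, P2C-HA and ABI2 as red diamonds and all other probe sets in grey, darker where the adjusted p is under 0.05. The 67 members lie between -1.25 and 0.70, and the isolated grey point near the bottom is AGL67.

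Most of the family gave readings above the middle of the array. The members' mean levels ran from 2.61 to 10.93 with a median of 5.78, which is the 68.3rd percentile of all probe sets, and 16 of 67 lay below the median level of the array. The highest readings were those of AT3G15260 of clade F, with 10.93 ± 0.04 (SD, n = 3) in wild type and 10.94 ± 0.12 in the mutant, of the unnamed 248428_at, with 10.29 ± 0.03 and 10.44 ± 0.05, and of AT4G31860, which read 10.04, 10.13 and 10.17 against 9.79, 9.86 and 10.04. The lowest was a probe set titled a pseudogene, AT2G14270, which read 2.65, 2.59 and 2.64 against 2.44, 2.60 and 2.73, at the 3.62nd percentile. AT1G17545 and AT2G40860, the latter titled as carrying both a kinase and a phosphatase domain, followed with mean readings of 3.10 and 3.12. Whether such low readings lie above background was not tested.

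Of the 8 ABA-pathway phosphatases in clade A other than ABI1, 2 could be matched to a probe set by the names in the authors' table. The symbol P2C-HA had no match in the RefSeq gene table, and its placing in clade A rests on general knowledge of this name. Any of the other 6 may be among the 19 unnamed members. P2C-HA, taken here as an earlier name of the ABA co-receptor HAB1, read 7.89, 7.79 and 7.93 on the wild-type arrays and 7.49, 7.23 and 7.39 on the mutant arrays. The mutant arrays were all below the wild-type arrays, and the replicates of each genotype lay close together. The difference of -0.50 (SE 0.11, 95% interval -0.75 to -0.25), 1.41-fold lower, did not pass the threshold (limma adjusted p = 0.0607). The authors' deposited table gave -0.46 with a false discovery rate of 0.0670. With 1 array left out the difference stayed between -0.56 and -0.43, and leaving out the third array of the wild type took it past the threshold (-0.47, limma adjusted p = 0.0412). Array weights (-0.45, limma adjusted p = 0.0384), median scaling (-0.57, limma adjusted p = 0.0449) and quantile normalization (-0.58, 0.0401) also brought it past the threshold.

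ABI2, another co-receptor of the same clade and the closest relative of ABI1, read 7.86, 7.51 and 7.21 in wild type and 7.44, 7.29 and 7.50 in the mutant. The groups overlapped, and the wild-type readings were spread more widely than those of the mutant. Its difference was -0.12 (SE 0.17, 95% interval -0.52 to 0.28, limma adjusted p = 0.781), so a difference as large as that measured for P2C-HA lies inside its interval. Without the first wild-type array the value was 0.050, and without the third it was -0.28. ABI1, set aside from the members, read 7.31, 7.30 and 6.99 in wild type and 6.74, 6.48 and 6.29 in the mutant, with a difference of -0.70 (limma adjusted p = 0.0607). Without the third wild-type array the difference of ABI1 was -0.80 (limma adjusted p = 0.0108). It did not pass with any other single array left out (0.106 to 0.246). Set beside these, the median over the 65 members other than P2C-HA and ABI2 was 0.03, and 39 of the 65 lay above 0. That is 60% of them, beside 54.9% of all probe sets. The 65 include the 19 unnamed members, whose lowest difference was -1.25 and among which further ABA-pathway genes may lie. The 65 therefore cannot be read as members outside the ABA pathway. With 2 genes on one side, no difference between ABA-pathway members and the rest was tested.

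**Figure D2:**
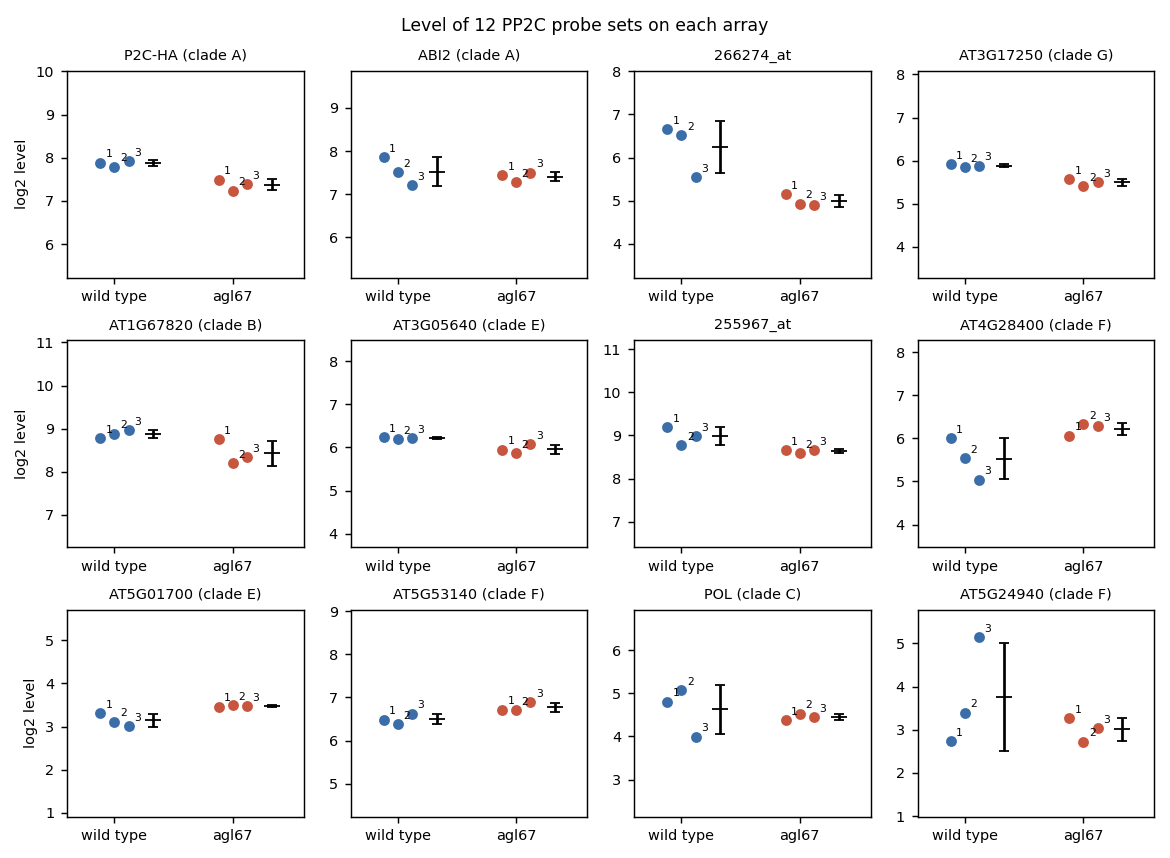
Log2 level on each array (vertical axis, every panel spanning the same range of log2 units) of 12 PP2C probe sets in wild type (blue) and agl67 (red), with replicate numbers beside the points and the mean and SD of 3 arrays as a bar at the right of each group. P2C-HA, AT3G17250 and 266274_at separate the genotypes, ABI2 and POL do not, and AT5G24940 is high on the third wild-type array alone.

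The unnamed probe set 266274_at, titled only as a putative protein phosphatase 2C, had the largest difference of the family. It read 6.66, 6.51 and 5.55 on the wild-type arrays and 5.15, 4.93 and 4.89 on the mutant arrays. All mutant readings lay below all wild-type readings, but the third wild-type array was closer to the mutant than to the other wild-type arrays. The difference was -1.25 (SE 0.28, 95% interval -1.89 to -0.60), which is 2.37-fold lower, and missed the threshold (limma adjusted p = 0.0644). Without the third wild-type array it was -1.59 with an adjusted p of 0.000249, and in the other 5 fits that leave out 1 array it lay between -1.33 and -1.04 and did not pass. It did pass with the replicate block (limma adjusted p = 0.0411), an intensity trend (0.0452), array weights (0.00104), quantile normalization (0.00695), median scaling (0.0185) and without the dimmest 40% of probe sets (0.0451). The authors' deposited table gave -1.09 with a false discovery rate of 0.0968. Another unnamed member, 255967_at, read 9.19, 8.77 and 8.98 in wild type and 8.66, 8.59 and 8.66 in the mutant, with a difference of -0.34 (adjusted p = 0.236).

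Among the MAP kinase phosphatases of clade B, AT1G67820, known as AP2C4, read 8.78, 8.88 and 8.97 in wild type and 8.75, 8.20 and 8.33 in the mutant. The groups were separated only narrowly, because the first mutant array nearly reached the lowest wild-type array. Its difference was -0.45 (95% interval -0.81 to -0.09, limma adjusted p = 0.205). AT1G07160, known as AP2C2, differed by -0.05 (adjusted p = 0.915), with a sign that turned when single arrays were left out. The probe set shared by AT2G30020, the gene of AP2C1, and by AT4G08260 and AT3G27140 is titled a pseudogene for each of the 3. It read 6.77, 6.23 and 5.96 in wild type and 6.67, 6.93 and 6.56 in the mutant. Its difference of 0.40 (adjusted p = 0.404) cannot be assigned to any of the 3 genes. The MAP kinases of the fixed list, MPK3, MPK4 and MPK6, differed by -0.13, 0.30 and 0.01, and none passed.

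POL, the gene of POLTERGEIST and the only named member of clade C, read 4.81, 5.08 and 4.00 in wild type and 4.38, 4.53 and 4.45 in the mutant. Its mutant readings lay between the wild-type readings, and the difference was -0.18 (limma adjusted p = 0.783). Without the third wild-type array the difference was -0.49 with an adjusted p of 0.0393, and without the second it was 0.048.

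The 4 named members of clade D, the clade that includes phosphatases of the plasma membrane proton pumps, differed by -0.13 to 0.01. AT3G51370 read 9.33 ± 0.14 (SD, n = 3) in wild type and 9.20 ± 0.10 in the mutant, a difference of -0.13 (95% interval -0.40 to 0.14). AT3G12620 differed by -0.13 (-0.41 to 0.15), AT3G55050 by -0.08 and AT3G17090 by 0.01. The widest interval of the 4 was that of AT3G55050, from -0.50 to 0.35, with a wild-type SD of 0.35 against a median of 0.22 over the family. The signs of AT3G55050 and AT3G17090 turned when single arrays were left out, and that of AT3G17090 also after median scaling and quantile normalization. The pumps themselves were found by title in 12 probe sets, and none passed. That titled proton pump 2 read 7.35, 7.27 and 6.42 in wild type and 8.27, 7.56 and 7.73 in the mutant, a difference of 0.84 (limma adjusted p = 0.194).

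Clade E had 10 named members with a median difference of -0.10, of which 4 lay above 0 and 6 below. AT5G01700 read 3.31, 3.11 and 3.01 in wild type and 3.45, 3.49 and 3.47 in the mutant, a difference of 0.33 (95% interval 0.08 to 0.58, limma adjusted p = 0.189). AT3G05640 read 6.23, 6.19 and 6.22 in wild type and 5.95, 5.86 and 6.07 in the mutant, a difference of -0.25 (95% interval -0.48 to -0.02, adjusted p = 0.262). Both separated the genotypes without passing, in opposite directions. AT3G05640 belongs with AT5G27930 and AT3G16800 to the EGR proteins, known as negative regulators of growth under drought. AT5G27930 differed by 0.26 and AT3G16800 by -0.11, the latter with a sign that turned when single arrays were left out.

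In clade F 8 of 10 named members lay above 0, with a median of 0.24, beside 54.9% of all probe sets. After quantile normalization 7 did, beside 49.3% of all, and after median scaling 6, beside 41.6%. AT4G28400, which had the largest positive difference of the family, read 6.00, 5.54 and 5.04 in wild type and 6.06, 6.32 and 6.29 in the mutant. The mutant arrays were all higher, by a small margin over the first wild-type array. The difference was 0.70 (SE 0.23, 95% interval 0.17 to 1.23), 1.62-fold higher (limma adjusted p = 0.185), and it was 0.45 without the third wild-type array. AT5G53140 read 6.49, 6.38 and 6.63 in wild type and 6.72, 6.71 and 6.89 in the mutant, a difference of 0.27 (adjusted p = 0.281). PIA1, named for its induction by a bacterial effector during defence, differed by 0.24 (adjusted p = 0.516). AT5G24940 stood out by a single reading. It read 2.74, 3.40 and 5.14 in wild type and 3.26, 2.72 and 3.04 in the mutant, and its difference went from -0.75 to -0.06 without the third wild-type array.

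Clade G held the third smallest p-value. AT3G17250 read 5.91, 5.84 and 5.88 in wild type and 5.57, 5.41 and 5.50 in the mutant, with no overlap and close replicates. The difference was -0.39 (SE 0.10, 95% interval -0.61 to -0.16, limma adjusted p = 0.0924), between -0.42 and -0.34 with 1 array left out. The authors' deposited table gave only -0.07 for this probe set, with a false discovery rate of 0.829, so the lower level was not found in both tables. AT3G62260 of the same clade differed by -0.18 (adjusted p = 0.646).

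Among the remaining named members, PPH1, the thylakoid phosphatase that dephosphorylates the light-harvesting antenna, read 5.46, 6.09 and 5.18 in wild type and 5.86, 6.07 and 6.08 in the mutant. The groups overlapped, and the difference was 0.42 (95% interval -0.09 to 0.94, limma adjusted p = 0.398). AT4G31860 differed by -0.22 (adjusted p = 0.364), with all mutant arrays below the wild-type arrays. Of the 9 named members outside the clade lists, AT1G18030 with 0.34 and AT1G09160 with 0.16 had the smallest p-values (adjusted p = 0.390 and 0.617). The probe set shared by AT3G63340 and AT3G63320 differed by 0.22 (adjusted p = 0.434).

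Seen array by array, 7 members had all mutant readings above all wild-type readings and 8 had them all below. This is 10.4% and 11.9% of the members, against 14.9% and 9.16% of all probe sets. The 7 higher ones were AT4G28400, AT5G01700, AT5G53140, 253512_at, AT5G27930, AT2G34740 and 248428_at. The 8 lower ones were P2C-HA, 266274_at, AT3G17250, AT1G67820, AT3G05640, AT4G31860, 255967_at and 267448_at. An exact permutation test over the 6 arrays, two-sided, gave p = 0.1 for each of these 15, the smallest value that 3 arrays against 3 allow. Groups without overlap always give this value, so the test adds nothing to the way the 15 were selected.

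**Figure D3:**
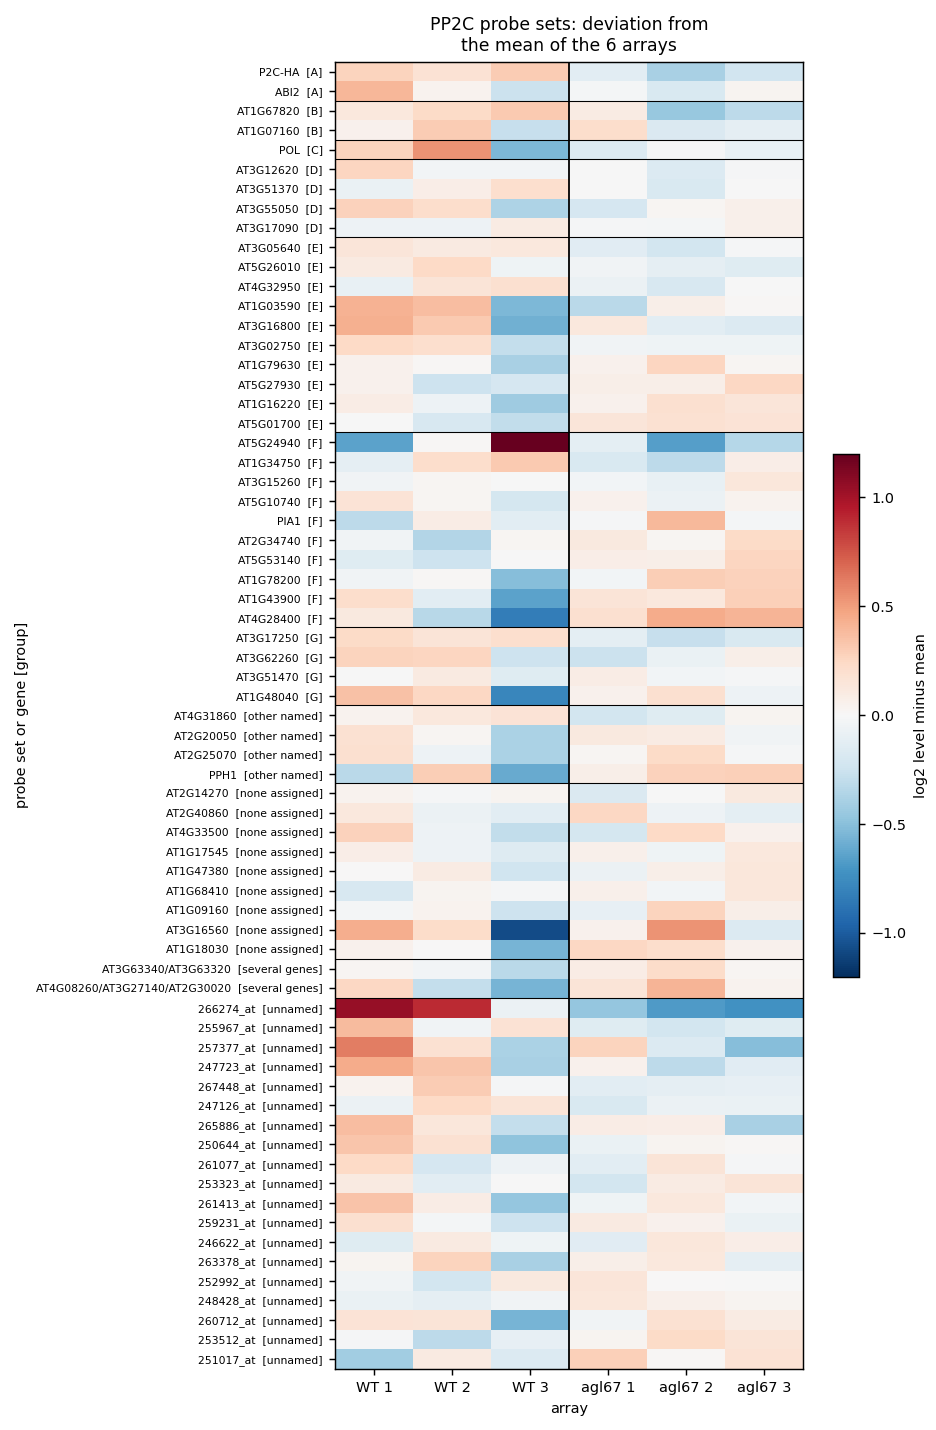
Log2 level of each of the 67 PP2C probe sets (rows, grouped by clade and sorted by difference within a group) on the 6 arrays (columns), as deviation from the probe set's mean over the arrays, with red above and blue below the mean and colours ending at -1.2 and 1.2. The third wild-type array is blue in many rows in which the other wild-type arrays are red, and AT5G24940 on that array lies beyond the end of the scale.

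Much of the spread within the family lay in the wild-type group. The median SD of a member was 0.22 over the wild-type arrays and 0.11 over the mutant arrays, beside 0.19 and 0.10 for all probe sets. The SD was larger in wild type for 54 of the 67, a count not made for all probe sets. The median deviation of the members on the third wild-type array from their own mean over the 6 arrays was -0.21, against 0.10 and 0.08 on the first and second and -0.01 to 0.03 on the mutant arrays. For all probe sets the deviation on that array was -0.11. Once it was left out 4 members passed, all lower in the mutant, against 6.73% of all probe sets passing and 2.87% passing as lower. These were 266274_at, P2C-HA, POL and 247723_at, the last with -0.52 (limma adjusted p = 0.0419) after -0.26 with all arrays. In the other 5 such fits 0 members passed, against 2.69% and 0.998% of all probe sets without the first and second wild-type array and 0.514%, 0.409% and 0.378% without the first, the second and the third mutant array.

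Other ways of fitting brought few members past the threshold, each of them lower in the mutant. The array weights were 0.21 for the third wild-type array and 0.79 to 1.94 for the others, so this fit is close to leaving that array out. Median scaling and quantile normalization also adjust for the lower median reading of that array. Array weights, median scaling and quantile normalization called the same 2, 266274_at and P2C-HA, against 6.55%, 3.96% and 4.58% of all probe sets, or 2.35%, 1.49% and 1.97% as lower. An intensity trend, a block for the replicate number and leaving out the dimmest 40% of probe sets called 266274_at alone, against 3.1%, 1.95% and 5.25% of all, or 0.945%, 0.484% and 1.42% as lower. Robust estimation called 0 members and 2.61% of all.

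**Figure D4:**
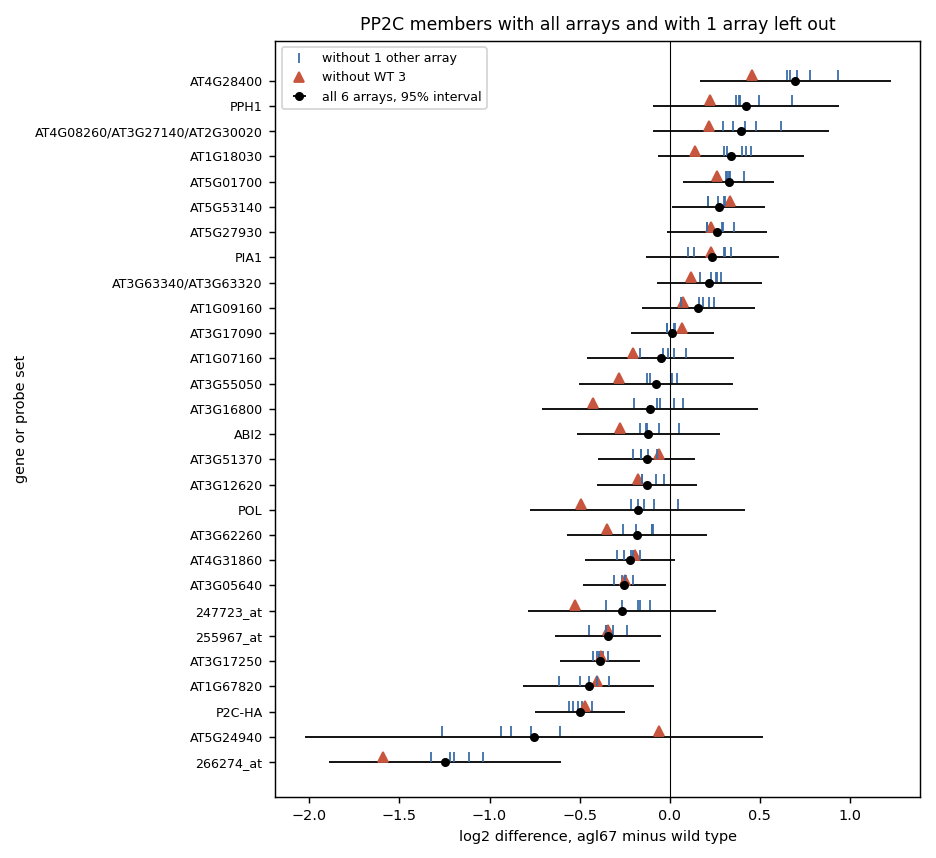
Log2 difference, mutant minus wild type (horizontal axis), of the PP2C members named for their difference (rows), with all 6 arrays and its 95% interval (black), without the third wild-type array (red triangles) and without each of the other arrays (blue ticks). The red triangle moves 266274_at to -1.59, POL to -0.49 and AT5G24940 to -0.06, while P2C-HA and AT3G17250 stay close to their values.

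Around the phosphatases, the fixed lists of the ABA pathway could be followed only in part. None of the 14 PYR/PYL receptor genes and none of the 10 SnRK2 kinase genes could be matched by name to a probe set. Of 6 bZIP factors that the kinases activate or that act beside them, 3 were matched and 1 passed: EEL, a seed bZIP factor, read 6.63, 6.87 and 6.72 in wild type and 7.52, 7.65 and 8.06 in the mutant (difference 1.00, limma adjusted p = 0.0226). Of the 6 fits that each drop 1 array, the one lacking the third array of the wild type kept EEL past the threshold (0.99, limma adjusted p = 0.00976) and the other 5 did not. ABF3 differed by -0.33 and AREB2, also known as ABF4, by 0.22, and neither passed.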

How the data were processed

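Values were the authors' log2 expression values, 1 per probe set and array, deposited as a value table; RMA and limma are named in the submitters' processing notes, with no version. The authors' deposited comparison table gave the gene titles, log2 ratios, p-values and false discovery rates, the latter from limma per the file headers. Its 6 columns of values per array were not used. For all 2064 probe sets with a difference beyond 0.5, its ratio had the sign found here. The use of titles to find genes was decided with the files at hand. Genes were named from the platform table through the RefSeq gene table, and otherwise from symbols and titles in the authors' table. Genome coordinates and sequences were not used here.

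The value table was not scaled further. The 64 control probe sets were left out. Genotype was the only term in limma 3.58.1 (R 4.3.3; lmFit, eBayes), with Benjamini-Hochberg adjustment over all 22746 probe sets and a threshold of 0.05. The fit was also tested on simulated data with equal spread in both genotypes and no deviating array. That test does not cover an array such as the third wild-type array. The limma p-values weigh a difference against the spread between these arrays, with eBayes drawing on all probe sets. Whether that spread covers separate seed lots is not given in the labels. Members, clade lists and tests were chosen with earlier results of these data known. Named were clade A, the 2 members with the smallest p-values in each other group, and the 3 highest and 3 lowest readings. AT5G24940, 247723_at, 267448_at, 253512_at, AT2G34740, AT3G16560, AT3G55050, AT3G17090, AT5G27930, AT3G16800 and PIA1 were picked with their values in view, and SESA4, RCA and RBCS-1A for having passed. The other paired seed and leaf markers were named beside these. The number of arrays limits the precision.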

Additional observations from a re-analysis of the deposited data

How the results depend on the processing

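The number of changed PP2C members was 0 with all arrays and in the authors' deposited table and with robust estimation. It was 1 with the replicate block, with an intensity trend and with the dimmest 40% of probe sets left out (which leaves 56 members), 2 with array weights, median scaling and quantile normalization, and 0 to 4 with 1 array left out. Every such call was a lower level in the mutant, but the fits reuse the same 6 arrays. The calls were those of 266274_at and P2C-HA, joined by POL and 247723_at only without the third wild-type array. Over all probe sets 615 (2.7%) changed, 1490 (6.55%) with array weights, 1042 (4.58%) after quantile normalization and 86 to 1530 (0.378% to 6.73%) with 1 array left out. Of the 67 members 27 changed sign in at least 1 fit, 26 with 1 array left out and 17 under another setting, a count not made for all probe sets. Among the named differences these were, as ranges with 1 array left out, ABI2 (-0.28 to 0.050), AT1G07160 (-0.20 to 0.089), POL (-0.49 to 0.048), AT3G55050 (-0.28 to 0.041), AT3G16800 (-0.42 to 0.075) and AT3G17090 (-0.015 to 0.068), the last also after quantile normalization (-0.094) and median scaling (-0.055). The cause was not tested.

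Replicate numbers are shared between the genotypes, but deviations of equally numbered arrays correlated at -0.16, 0.14 and 0.22 across probe sets, and the first wild-type array correlated best with the second mutant array (0.34), so the numbers were not taken as pairs. With the replicate number as a block 443 probe sets passed, and 266274_at did (-1.25, adjusted p = 0.0411). Low readings limit what can be seen for the 16 members below the median level of the array.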

Other observations

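The reading of AT5G24940 on the third wild-type array had a counterpart among the proton pumps. Probe set 265552_at, titled a putative plasma membrane proton pump, read 3.06, 3.45 and 5.26 on the wild-type arrays and 3.18, 3.07 and 2.96 on the mutant arrays, and 263791_at read 3.88, 3.92 and 4.78 against 4.04, 3.80 and 4.09. Over the array 186 probe sets (0.818%) read higher there by over 1 log2 unit than on any other array, and AT5G24940 was the 1 PP2C member among them.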
